A study of Mus musculus x Mus spretus with 8 samples.

Results

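The clustered protocadherins are cadherin-like cell-surface proteins whose genes lie side by side on mouse chromosome 18. The members were the protein-coding genes of that chromosome whose symbol begins with Pcdha, Pcdhb or Pcdhg, matched by Ensembl identifier. This gave 57 of the 49670 genes in the table, of which 14 belong to the alpha cluster, 22 to the beta cluster and 21 to the gamma cluster. Pcdhgb8 is annotated as a polymorphic pseudogene and was therefore no member. The cells were Patski cells, a female mouse line from a C57BL/6 X SPRET/EiJ cross, labelled as fibroblasts and grown in DMEM with 10% FBS. There were 4 groups of 2 libraries. The controls are wild type (WT), and each of the other groups carries a label as a homozygous knockout of a single gene, either Stc1, Pygo1 or Rlim. Stc1 encodes the secreted hormone stanniocalcin, Pygo1 a nuclear cofactor of Wnt signalling and Rlim an X-linked ubiquitin ligase. All groups share the hybrid background, and the submitters' design text describes the knockouts as independent mutants. The Rlim-labelled libraries, however, differed from each other by a median of 0.09 on the log2 scale over all tested genes, less than the WT libraries with 0.13. It was not stated whether the WT libraries came from separate cultures, and whether the Rlim-labelled ones are separate lines was not tested. The p-values measure the spread between these libraries, which may in part be technical.

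In the alpha and gamma clusters, each gene has its own promoter and a long first exon, called the variable exon, which is spliced to constant exons shared by the whole cluster. The beta genes have no such constant exons, and each codes for its protein in 1 exon. In neurons each cell uses a few of these promoters, often on only 1 of the parental chromosomes, with CTCF and cohesin bringing the chosen promoter to a distant enhancer, while the C-type genes at the cluster ends are used more evenly. The proteins bind copies of themselves on neighbouring cells, which lets neurites of the same neuron recognise and avoid each other.

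The libraries held 73128996 to 81500061 counts, and 50.6 to 52.6% of them carried a genome of origin, called genome 1 or genome 2. Which parent is genome 1 was not given in the sources used here. The members together took 4131 to 6465 counts per library. The targeted genes were not lower in all libraries carrying their label. Stc1 stood at 3.84 and 3.15 CPM (counts scaled to library size) in WT and at 3.67 and 68.4 CPM under its own label. Rlim stood at 57.2 and 51.4 CPM in WT and at 71.9 and 64.2 CPM under its label, and Pygo1 at 2.49 and 2.44 against 2.50 and 0.674 CPM. Gene counts do not show a small deletion, and directions below are therefore those of "the libraries labelled" with a gene. Of 11 fibroblast markers, Vim and Fn1 were high, at 833 to 1279 and 1545 to 4562 CPM. Pdgfra, Col1a1 and S100a4 were read at 1.12 to 13.2 CPM, Dcn, Col3a1 and Pdgfrb at 0.0277 to 2.23 CPM, and Col1a2, Thy1 and Lum stayed under 0.2 CPM. The kidney tubule gene Pax8 was at 455 to 623 CPM.

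On GRCm38 the alpha members span chr18:36930184-37187661, the beta members chr18:37264938-37524479 and the gamma members chr18:37661793-37841873, all on the plus strand. The gamma genes end in the same constant exons, and several long read-through gene models overlap them, so reads of those exons cannot be tied to a member. Pcdhga10, which has 0 exon bases of its own in the annotation, held at most 4 counts in a library, whereas Pcdhgc3 held up to 4360, so reads of the shared exons were not added to every gene. Levels are given in CPM, and levels compared between genes are CPM per kilobase of exon that belongs to no other gene. Of the beta genes, Pcdhb12 is the least clean, since 36.5% of its exon bases are its own and the rest lie under the antisense gene Gm37446. Among the gamma genes, Pcdhgc3 shares exon bases with the antisense gene BC037039, and Pcdhgb7, Pcdhga11 and Pcdhga12 with Gm26672. Own bases, outside these and the shared exons, were 33.1% of the exon bases of Pcdhgc3, 38.7% for Pcdhgb7, 26.4% for Pcdhga11 and 61.9% for Pcdhga12. Antisense overlap matters here because the sources used here do not say whether counting used strand.

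Of the 57 members, 44 had a count in at least 1 library, and 13 had 0 counts in all 8. The 13 were Pcdhb1 and 12 alpha genes, namely Pcdha1 to Pcdha8, both genes that the annotation names Pcdha11, Pcdhac1 and Pcdhac2. A count of 0 allows up to 3 counts, or 0.0376 to 0.0416 CPM in these libraries, and this covers counting error only. The remaining alpha genes were at the same limit, with 4 counts for Pcdha9 and 2 for Pcdha12 over all 8 libraries. No alpha gene, the C-type genes Pcdhac1 and Pcdhac2 included, was therefore read above this limit in any group. Reads of the constant exons that the alpha genes share likewise cannot be tied to a member. Own bases were 47.2% of the exon bases of Pcdhac1 and 51.4% for Pcdhac2. They were 16.8% for 1 of the genes named Pcdha11, and Pcdha4 has only 404 own exon bases. The 0 counts of these last genes therefore carry less information.

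The beta cluster was read at low levels, and most of its counts came from its last 8 genes. Summed over the cluster, the level was 2.06 and 2.62 CPM in WT, 6.59 and 2.90 in the Stc1-labelled libraries, 4.03 and 10.7 in the Pygo1-labelled ones and 6.42 and 6.09 in the Rlim-labelled ones. All 6 knockout-labelled libraries lay above both WT libraries, and the Stc1 and Pygo1 pairs were each spread widely. Pcdhb15 to Pcdhb22 made up 1.80 and 2.27 CPM of the WT sums, and Pcdhb1 to Pcdhb14 made up 0.260 and 0.351 CPM. Per kilobase the highest means over the 8 libraries were those of Pcdhb15 with 0.258, Pcdhb17 with 0.227, Pcdhb18 with 0.142, Pcdhb19 with 0.0982 and Pcdhb22 with 0.0835 CPM per kb.

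The leading beta gene differed between libraries. By counts it was Pcdhb19 in WT replicate 1 and in both Stc1-labelled libraries, Pcdhb18 in Pygo1 replicate 1, and Pcdhb17 in the other 4. Counts favour long genes, and Pcdhb19 has 7.14 kb of own exons against 2.80 kb for Pcdhb15. Per kilobase the leader was Pcdhb19 in WT replicate 1 and Stc1 replicate 2, Pcdhb17 in Pygo1 replicate 2, and Pcdhb15 in all others. Pcdhb19 took 35.8% of the beta counts in Stc1 replicate 2, which held 218 such counts. Pcdhb17 took 29.8% in Pygo1 replicate 2, which held 778. Between 6 and 11 of the 22 beta genes reached 10 counts in a library.

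The gamma cluster was dominated by Pcdhgc3, a C-type gene, and Pcdhgb5, a B-type gene. Pcdhgc3 took 50.7 to 72.8% of the gamma counts of a library. Pcdhgb5 took 29.5 and 29.4% in WT and 6.89 and 6.36% in the Rlim-labelled libraries. Per kilobase, the mean over the libraries was 23.1 for Pcdhgc3, 2.81 for Pcdhgb5, 1.13 for Pcdhgb1, 0.548 for Pcdhgb7 and 0.470 CPM per kb for Pcdhga3. Pcdhgc3 led in every group, with 17.5 CPM per kb in WT and 30.1 under the Rlim label. Pcdhgb5 came next in WT with 3.34 CPM per kb, but under the Rlim label it was at 1.08, below Pcdhgb1 with 2.46. The other C-type genes were far lower, Pcdhgc4 with 0.109 and Pcdhgc5 with 0.0803 CPM per kb. Pcdhgc4, known for its part in neuronal survival, thus stayed within the range of the 5 leading beta genes.

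**Figure D1:**
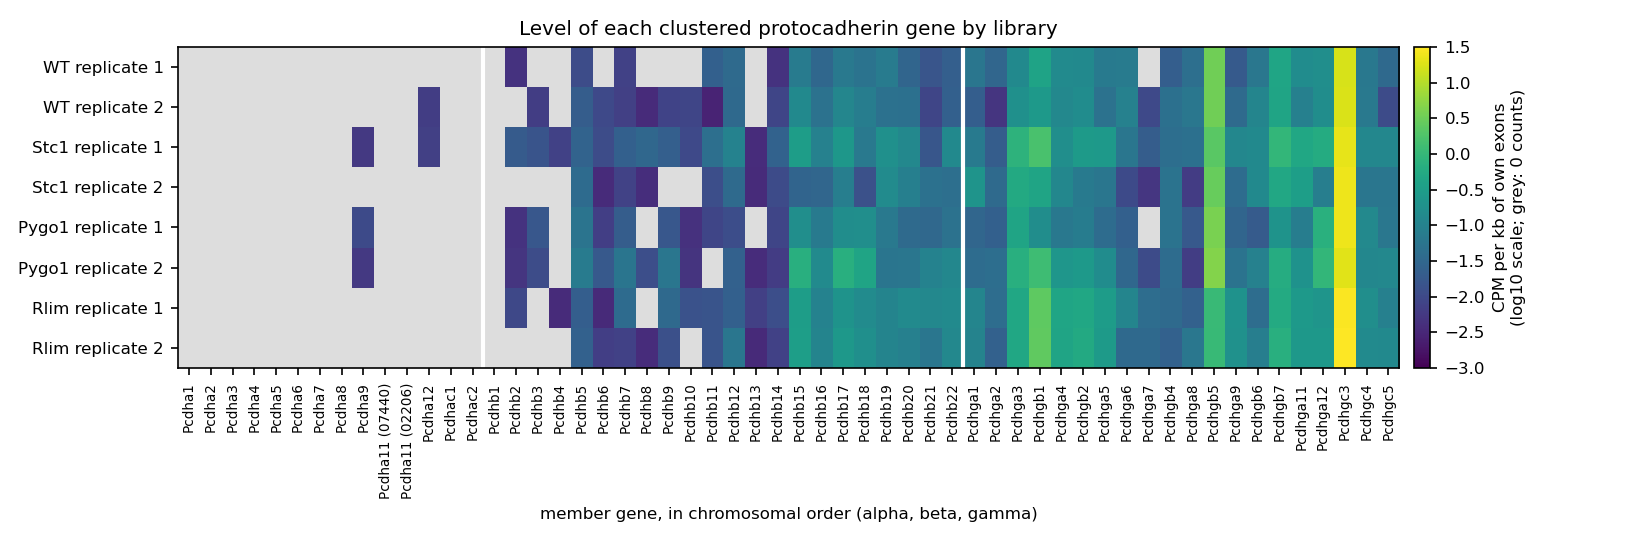
Level of 56 members (columns, in chromosomal order; Pcdhga10 has no exon bases of its own and is not drawn) in the 8 libraries (rows), as CPM per kilobase of own exons on a log10 colour scale, with 0 counts in grey. The alpha block on the left is almost empty, the last 8 beta genes stand out within the beta block, and the columns of Pcdhgb5 and Pcdhgc3 are the brightest of the gamma block.

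The default expression filter kept 27 members for testing, 10 of the beta and 17 of the gamma cluster. The other 17 members with a count, 2 alpha, 11 beta and 4 gamma genes, reached at most 0.222 CPM, the level of Pcdhb14 in 1 library. Because the filter keeps a gene for its level in some group, the 27 are not all members, and counts are also given over the 44 members with any count. The 3 comparisons share the WT libraries.

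Against WT, the Rlim-labelled libraries read less Pcdhgb5 and more Pcdhgc3. Pcdhgb5 was at 15.3 and 15.6 CPM in WT, 10.4 and 13.0 under the Stc1 label, 18.5 and 21 under the Pygo1 label, and 5.11 and 4.90 under the Rlim label. The Rlim-labelled pair was the lowest of all, below every other library. In edgeR's quasi-likelihood test Pcdhgb5 fell by 1.62 ± 0.17 (SE) on the log2 scale, that is 3.08-fold, with an adjusted p of 0.0182. Pcdhgc3 was at 31.3 and 32.5 CPM in WT, 39.8 and 43.8 under Stc1, 44.0 and 35.8 under Pygo1, and 53.6 and 56.0 under Rlim. Its Rlim-labelled libraries were the highest of the 8, and its WT libraries the lowest. The gene rose by 0.78 ± 0.13 (SE) on the log2 scale, 1.72-fold, with an edgeR adjusted p of 0.0496, at the edge of the threshold.

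These were 2 of the 27 tested members, beside 1.4% of all genes tested in this comparison. Without either WT library or either Rlim-labelled library, neither gene was called by edgeR; an arm of 1 library is then assumed to vary like the other groups. The adjusted p then lay between 0.217 and 0.257 for Pcdhgb5 and between 0.403 and 0.457 for Pcdhgc3, while the folds stayed near those above. Library sizes from the rest of chromosome 18 gave Pcdhgc3 an adjusted p of 0.0643.

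Many other members were higher in the Rlim-labelled libraries without passing the edgeR threshold. With the called Pcdhgb5 and Pcdhgc3 included, 14 of the 27 reached an unadjusted p under 0.05 in edgeR. Of these 13 were higher, and the lower 1 was Pcdhgb5. The share of all tested genes at this level is not given here, for this label or for the later counts of this kind. Whether such counts are unusual cannot be told from them. Of the 44 members with a count, 26 had both Rlim-labelled libraries above both WT libraries, beside 27.2% of all 29381 genes with a count, and 1 had both below, beside 24.5%. The median log2 difference over these 44 was 1.15, and over all 29381 genes it was 0. It was 0.86 with 5 members that stood at 0 in WT or under the label, and at no more than 3 counts in the other group, set to no difference. Pcdhgb1 was at 1.05 and 0.727 CPM in WT and at 6.34 and 6.54 CPM under the Rlim label. That difference was 2.85 ± 0.97 (SE) on the log2 scale with an edgeR adjusted p of 0.191. Pcdhga9, chosen after its values were seen, was at 0.0651 and 0.125 CPM in WT and at 0.695 and 0.655 under the label, 2.80 ± 0.64 (SE) on the log2 scale with an edgeR adjusted p of 0.0897. In both genes the pairs did not overlap, and the spread that all groups share in the fit was wide. Fitted on the WT and Rlim-labelled libraries alone, edgeR called 20 members, and DESeq2 called 6 over all libraries. The shares of all genes called in these fits are not given here, so whether these counts are particular to the members cannot be told.

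**Figure D2:**
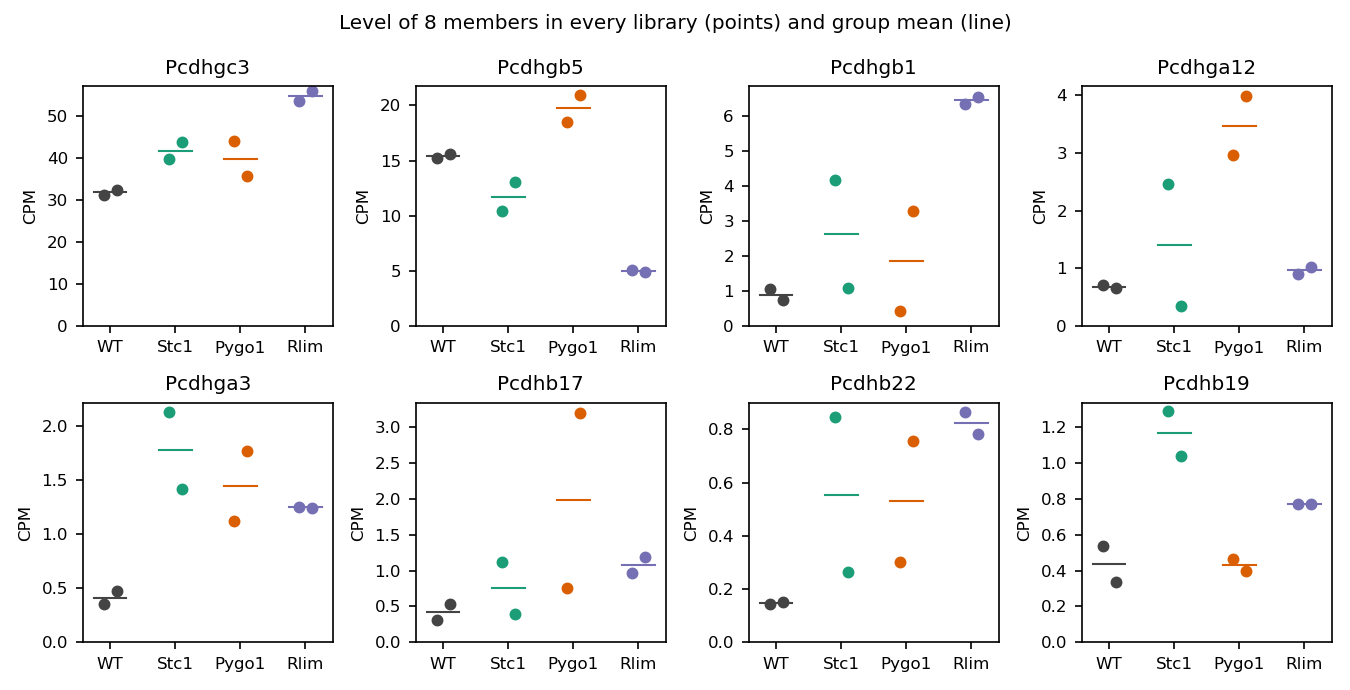
CPM (vertical axis, from 0) of 8 members in each library (points, 2 per group) with the group mean as a line. Pcdhgb5 is lowest and Pcdhgc3 and Pcdhgb1 are highest under the Rlim label, while the points of Pcdhgb1, Pcdhga12, Pcdhb17 and Pcdhb22 lie far apart under the Stc1 or Pygo1 label.

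In the Stc1-labelled libraries no member passed the edgeR threshold, 0 of 27 beside 0.577% of all genes tested. There were 9 members with an unadjusted p under 0.05, 8 of them higher. DESeq2 called Pcdhb19 and Pcdhga3, with no share over all genes given here. Of the 44 members with a count, 19 lay above both WT libraries in both, beside 18.2% of all genes, and 2 lay below, beside 16.0%. Their median log2 difference was 1.01, or 0.86 with 3 such members set to no difference. Pcdhga3, an A-type gene, was at 0.352 and 0.476 CPM in WT and at 2.13 and 1.42 CPM under the Stc1 label. It was 2.10 ± 0.36 (SE) higher on the log2 scale with an edgeR adjusted p of 0.0678. Pcdhb19 was at 0.534 and 0.338 CPM in WT and 1.29 and 1.04 CPM under the label, 1.41 ± 0.32 (SE) on the log2 scale, edgeR adjusted p 0.125. In both genes the Stc1-labelled libraries did not overlap WT. Pcdhgb5 was on the low side, with a log2 difference of -0.39 ± 0.16 (SE) and an edgeR adjusted p of 0.298.

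Leaving out 1 of the Stc1-labelled libraries moved the number of members edgeR called in this comparison from 0 to 3 without replicate 1 and 4 without replicate 2. The label is then a single library, whose spread is taken from the other groups, so these calls add no support. The direction of some genes rested on replicate 1. Without it, the log2 difference of Pcdhb15 was -1.86, that of Pcdhb17 -0.10 and that of Pcdhga12 -0.97, where the pair together gave 0.72, 0.83 and 1.04.

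In the Pygo1-labelled libraries edgeR called 0 of 27 members, beside 2.35% of all genes tested. There were 10 with an unadjusted p under 0.05, all higher. DESeq2 called 4, namely Pcdhb17, Pcdhb18, Pcdhga3 and Pcdhga12, with no share over all genes given here. Both libraries lay above both WT libraries in 17 of the 44 members with a count, beside 23.4% of all genes, and below in 3, beside 21.6%. The median log2 difference over the 44 was 0.77, or 0.47 with 4 members at 0 in a group set to no difference. Pcdhga3 was at 1.12 and 1.78 CPM under this label, 1.80 ± 0.36 (SE) above WT on the log2 scale with an edgeR adjusted p of 0.0568. Pcdhga12, chosen after its values were seen, was at 0.703 and 0.652 CPM in WT and 2.96 and 3.98 CPM under the label. Its difference was 2.35 ± 0.77 (SE) on the log2 scale with an edgeR adjusted p of 0.154. Both pairs lay clear of WT.

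Several beta genes were also high under the Pygo1 label, above all in replicate 2. Pcdhb17 was at 0.313 and 0.539 CPM in WT and at 0.755 and 3.19 CPM under Pygo1. Pcdhb18 was at 0.260 and 0.401 CPM in WT and at 0.856 and 2.17, and Pcdhb15 at 0.208 and 0.376 against 0.478 and 1.91 CPM. In these 3 genes replicate 2 stood highest of the 8 libraries. Their log2 differences were 2.21 ± 0.77, 2.19 ± 0.71 and 2.02 ± 1.03 (SE), with edgeR adjusted p-values of 0.174, 0.152 and 0.321. Pcdhb19, which lies next to Pcdhb18, was at 0.466 and 0.399 CPM, within the WT range.

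**Figure D3:**
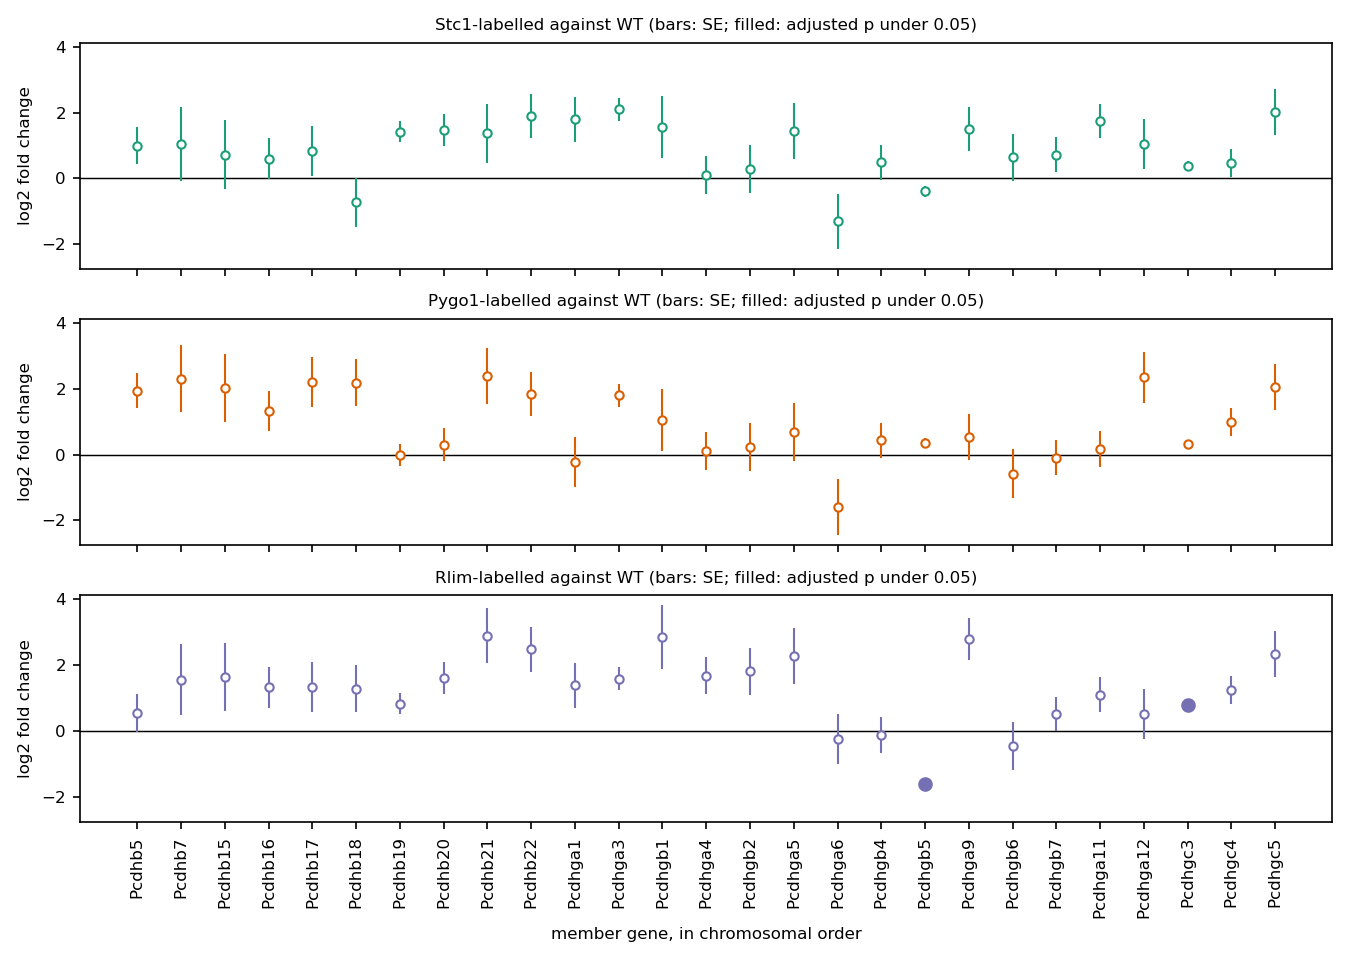
Log2 fold change (vertical axis) of the 27 tested members (horizontal axis, in chromosomal order) for each label against WT; bars are standard errors and filled points have an edgeR adjusted p under 0.05. Most points lie above 0 in each panel, and the filled points are Pcdhgb5 at -1.62 and Pcdhgc3 at 0.78 under the Rlim label.

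Pcdhga3 was higher under each label, with 1.26 and 1.25 CPM under the Rlim label and a log2 difference of 1.59 ± 0.36 (SE), edgeR adjusted p 0.0866. Because all these differences share the same WT libraries, they are not separate observations. Pcdhb22 was at 0.143 and 0.150 CPM in WT, 0.845 and 0.266 under Stc1, 0.302 and 0.757 under Pygo1, and 0.865 and 0.784 under Rlim. Every knockout-labelled library lay above WT, and edgeR's adjusted p-values were 0.245, 0.193 and 0.127. Pcdhgb7 was at 0.807 and 0.789 CPM in WT, 1.72 and 0.905 under Stc1, 0.378 and 1.11 under Pygo1, and 1.04 and 1.25 under Rlim. Its Pygo1-labelled libraries lay on either side of WT.

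Under the Stc1 and Pygo1 labels, the 2 libraries often read members at different levels. A difference of more than 2-fold between them, with 0.05 CPM added, was found in 13 of the 27 tested members under Stc1, 11 under Pygo1, 2 under Rlim and 1 in WT. Among all 17839 tested genes the shares were 17.9, 8.65, 1.45 and 1.87%. These genes were not matched to the members for level, and ratios of low counts vary more. Pcdhgb1 stood at 4.17 and 1.09 CPM under Stc1 and at 0.428 and 3.28 CPM under Pygo1. Pcdhga12 was at 2.45 and 0.346 CPM under Stc1. Within a pair, log2 values of the members differed in the median by 0.97 under Stc1, 0.97 under Pygo1, 0.47 in WT and 0.13 under Rlim, and those of all tested genes by 0.42, 0.26, 0.13 and 0.09. The Rlim-labelled libraries thus differed least from each other.

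Over whole clusters, the ratio of group means to WT was larger for the beta genes than for the gamma genes. The beta sum was 2.34 ± 0.397 CPM (SD, n = 2) in WT, and the ratios were 2.03 for Stc1, 3.15 for Pygo1 and 2.68 for Rlim. The gamma sum was 52.3 ± 0.819 CPM (SD, n = 2) in WT, with ratios of 1.23, 1.34 and 1.44. The gamma A genes gave ratios of 2.38, 2.72 and 2.45, the gamma B genes 0.934, 1.29 and 0.799, and the gamma C genes 1.32, 1.26 and 1.73. Without Pcdhgb5 and Pcdhgc3 the remaining 19 gamma genes gave 2.20, 2.07 and 3.17. These sums are a description and were not tested. In bulk RNA, more cells reading a gene and more RNA per cell cannot be told apart.

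Markers of other cell types also differed between the groups. Of 6 kidney tubule markers, edgeR called Fxyd2 and Cldn2 lower under each label. Fxyd2, a sodium pump regulator, was at 73.3 and 79.6 CPM in WT, 8.48 and 8.19 under Stc1, 0.705 and 0.702 under Pygo1, and 4.34 and 3.88 under Rlim. Cldn2, a tight junction protein, was at 133 and 132 CPM in WT and at 22.5 to 53.6 CPM elsewhere. The 6 tubule markers summed to 3835 and 3968 CPM in WT, 4458 and 4198 under Stc1, 3080 and 3480 under Pygo1, and 3687 and 3808 under Rlim. Of the 5 tested epithelial markers Cdh1 was called lower under Pygo1 and Rlim, with 9.52 and 8.91 CPM in WT against 0.201 to 0.514 CPM. Of the other lists, edgeR called Fn1 and Cd68 higher under Pygo1, and under Rlim S100a4 lower and Pecam1 higher. The part of these genes in the protocadherin levels was not tested.

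The 4 tested neuron and glia markers had median log2 differences of 0.77, 0.68 and 1.00 for Stc1, Pygo1 and Rlim. The 10 neuron and glia markers summed to 13.0 and 13.7 CPM in WT, 31.2 and 12.5 under Stc1, 10.4 and 29.3 under Pygo1, and 26.0 and 24.7 under Rlim. Tubb3, a neuronal tubulin, made up most of it with 7.98, 9.44, 19.6, 8.29, 5.70, 17.7, 17.3 and 15.6 CPM in the same order. Map2, a microtubule-associated protein of dendrites, was at 2.50, 2.19, 8.31, 0.240, 1.66, 7.69, 5.19 and 5.23 CPM. The libraries high in both genes were Stc1 replicate 1, Pygo1 replicate 2 and both of Rlim, which were also the 4 highest in Pcdhgb1 and Pcdhb22, members picked after their values were seen. Rbfox3, a marker of neuronal nuclei, was highest in the same 4 libraries, though at no more than 0.125 CPM. The remaining markers of the list had other orders or were at or near 0. Syt1, a synaptic vesicle protein, was at 0.925 and 0.902 CPM in WT and 1.60 to 2.21 elsewhere, highest in Stc1 replicate 2, with edgeR adjusted p-values of 0.0794, 0.0840 and 0.0712. Elavl3 was highest in Stc1 replicate 2 at 0.306 CPM, Elavl4 was at 0 in both Rlim-labelled libraries, and Gfap ran from 1.05 to 1.91 CPM. The defining neuronal and glial markers Snap25 and Olig2 were at 0 in all libraries, and Stmn2 reached at most 0.0133 CPM. Their part in the levels of the members was not tested either. edgeR called 0 of the 4 tested markers of this list in any comparison, beside 0.577, 2.35 and 1.4% of all genes tested. At an unadjusted p under 0.05 there was 1 in each. DESeq2 also called 1 in each.

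The genome of origin differed from gene to gene within the clusters. The median genome 1 share of 279 genes of chromosome 18 was 49.7 to 52.5% in the 8 libraries. The beta cluster lay well under it, at 21.9% (95% Wilson interval 17.4 to 27.1) in WT, 26.6% (23.1 to 30.6) under Stc1, 16.0% (13.7 to 18.6) under Pygo1 and 18% (15.4 to 20.9) under Rlim. These rest on 279, 533, 844 and 723 reads with a genome, and all intervals here cover counting error only. By library the beta share ran from 11.8% in Pygo1 replicate 2 to 39.8% in Stc1 replicate 2. Pcdhb15 to Pcdhb22 were at 16.9% (15.4 to 18.6) over all libraries and Pcdhb1 to Pcdhb14 at 44.5% (38.4 to 50.9), so the low share lay in the last 8 genes.

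The gamma subfamilies differed in their summed genome shares. Over the 2 libraries of a group, the gamma A genes were at 62.2% genome 1 in WT, 77.4% under Stc1, 86.0% under Pygo1 and 62.9% under Rlim. Pcdhga12 and Pcdhga3 gave most of the genome 1 reads. The other 10 gamma A genes, a split made after the values were seen, were at 37.3% (28.8 to 46.6) in WT, 55.2% under Stc1, 58.0% under Pygo1 and 50.6% under Rlim. These 10 were mixed over all libraries, with Pcdhga9 at 86.8% and Pcdhga11 at 82.9% but Pcdhga4 at 20.4% and Pcdhga1 at 24.2%. The gamma B genes were at 9.38, 14.2, 7.50 and 21.9%. The gamma C genes were at 48.6, 51.8, 55.5 and 56.7%, near the chromosome's median. Pcdhgb5 supplied most gamma B reads, except under Rlim, where Pcdhgb1 gave more, and Pcdhgc3 supplied most gamma C reads.

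**Figure D4:**
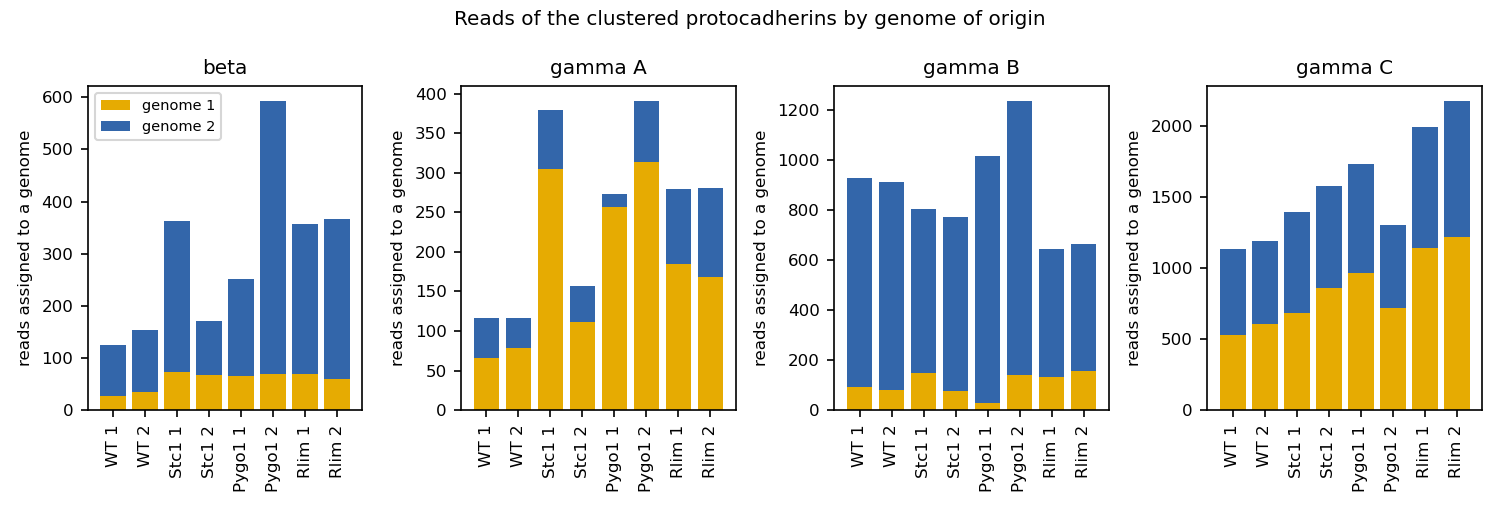
Reads assigned to genome 1 (lower part of each bar) and genome 2 (upper part) in each library, summed over the beta, gamma A, gamma B and gamma C genes; each panel has its own count axis from 0. Genome 2 makes up most of the beta and gamma B bars and genome 1 most of the gamma A bars, while the gamma C bars are split nearly evenly.

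Pcdhgb5 was read almost entirely from genome 2 in every library. Its reads split into 12 of genome 1 and 789 of genome 2 in WT replicate 1, and 6 and 789 in WT replicate 2. Under the Rlim label the numbers were 6 and 256 in replicate 1, and 8 and 236 in replicate 2. The lower level of Pcdhgb5 in the Rlim-labelled libraries was thus a lower number of genome 2 reads. Its genome 1 share was 1.13% (0.715 to 1.78) in WT, 0.939% (0.525 to 1.67) under Stc1, 1.72% (1.23 to 2.39) under Pygo1 and 2.77% (1.66 to 4.59) under Rlim. Of the stretches of 50 bases in the variable exon of Pcdhgb5, 88.4% occur in no transcript of another gene. The shared constant exons are not part of this value.

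Pcdhb15 showed the same lean, with 0 of 37 such reads from genome 1 in WT, which allows a share of up to 8.11%. Over all libraries it was at 1.10% (0.428 to 2.79), and no library exceeded 1.89%. Pcdhb18 had fewer than 20 such reads under the Stc1 label and was at 7.06% (4.79 to 10.3) over all libraries. Pcdhb16 was at 20% (9.51 to 37.3) in WT and at 12.8, 6.25 and 12.7% under Stc1, Pygo1 and Rlim. Its WT value lies at the border of 20% used here to call a gene mainly genome 2.

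Other members leaned the opposite way. Pcdhga12 was at 88.4% (79.9 to 93.6) genome 1 in WT, 93.3% (88.5 to 96.2) under Stc1, 95.1% (92.6 to 96.8) under Pygo1 and 88.7% (81.6 to 93.3) under Rlim. Pcdhgb7 was at 92.4, 89.8, 92.5 and 96.8%. Both genes stayed above 80% in all groups, while in Stc1 replicate 2 alone Pcdhgb7 was at 79.2% (65.7 to 88.3). Pcdhga3 was at 75.7% (59.9 to 86.6) in WT, 90.6% (85.0 to 94.2) under Stc1, 82.6% (75.2 to 88.1) under Pygo1 and 74.3% (65.2 to 81.7) under Rlim. Pcdhgb5 and Pcdhgb7 are both B-type genes of the same cluster, and their reads came mainly from different genomes in all 8 libraries.

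A share under 20% or over 80% in every group was found in 4 of 12 members with at least 20 such reads in each group, or 33.3%. These were Pcdhb15 and Pcdhgb5 on the low side and Pcdhgb7 and Pcdhga12 on the high side. Among the other genes of chromosome 18 with at least 20 such reads in each group, 29 of 328, or 8.84%, met the same rule. They were not matched to the members for number of reads. Genes whose genomes sum to more than all counts were left out of the 328, while Pcdhb19, such a gene, was kept among the 12. Of 19 genes that flank the clusters and had 20 reads in every library, 18 stayed between 20 and 80% in every group, Ndfip1 being the exception. Taf7, a gene between the beta and gamma clusters that codes for a transcription factor subunit, was at 40.9, 56.1, 52.3 and 53.1% in the 4 groups. Hdac3, a histone deacetylase gene that also lies nearby, was at 67.9, 72.8, 72.2 and 72.5%.

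**Figure D5:**
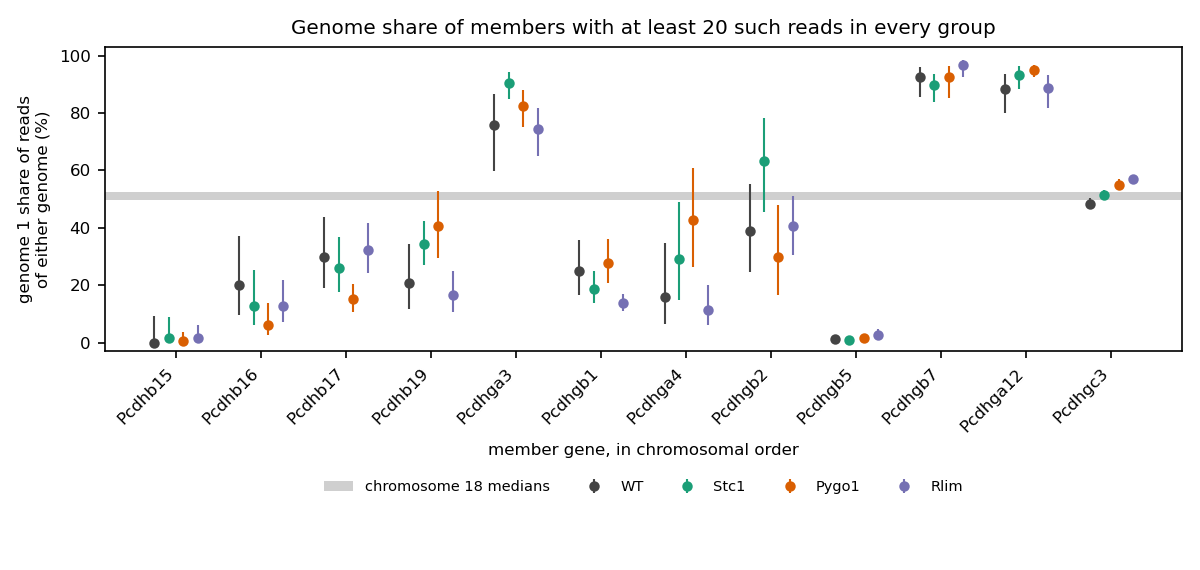
Genome 1 share (vertical axis, percent of reads of either genome) of the 12 members with at least 20 such reads in every group; points are groups of 2 libraries, bars are 95% Wilson intervals and the grey band spans the medians of chromosome 18 over the 8 libraries. Pcdhb15 and Pcdhgb5 lie near 0, Pcdhgb7 and Pcdhga12 near 90%, and Pcdhgc3 in or near the band.

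In some members the 2 libraries of a label differed in genome. Pcdhb17 was at 11.7% (7.59 to 17.5) genome 1 in Pygo1 replicate 2, where it was highest, and at 27.9% (16.7 to 42.7) in Pygo1 replicate 1. Its genome 2 reads there numbered 144 and 31, its genome 1 reads 19 and 12. Pcdhga4 was at 87.5% (52.9 to 97.8) in Pygo1 replicate 1, on 8 reads, and at 25% (11.2 to 46.9) in replicate 2. Pcdhb19 was at 60.5% (44.7 to 74.4) and 11.5% (4 to 29) in the same libraries, though its genomes sum to 38 reads against 37 counts in replicate 1. The gamma B genes together were at 2.66% (1.83 to 3.84) and 11.5% (9.83 to 13.4). This sum also depends on the mix of its genes. In the same libraries Pcdhgb7 was at 84.2 and 94.6%, Pcdhgb1 at 20 and 28.4%, and Pcdhgb5 at 0.718 and 2.69%. The genome 1 reads of Pcdhgb7 numbered 16 and 70, and those of Pcdhgb1 2 and 33. For Pcdhga4, Pcdhb19 and the gamma B sum these intervals do not overlap.

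The higher level of Pcdhgb1 under the Rlim label lay mainly in genome 2 reads. There were 33 and 24 of them in WT and 220 and 242 under Rlim, and 15 and 4 of genome 1 in WT against 37 and 36. Its genome 1 share was 25% (16.6 to 35.8) in WT and 13.6% (11 to 16.8) under Rlim, and the intervals overlap at their ends. Pcdhga9 had 3 and 7 reads with a genome in WT and 46 and 30 under Rlim, where 94.7% (87.2 to 97.9) were of genome 1.

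Whether shares differ from WT could be tested for Pcdhgb5 and Pcdhgc3, which had at least 20 reads with a genome in every library. edgeR called neither of these 2 in any comparison, beside 5.54, 20 and 11.9% of the 12476 genes tested for Stc1, Pygo1 and Rlim. At an unadjusted p under 0.05 there were 0, 0 and 1. That 1 was Pcdhgc3 under Rlim, at 48.5% (46.4 to 50.5) in WT and 56.8% (55.3 to 58.4), a log2 odds difference of 0.49 ± 0.18 (SE) with an edgeR adjusted p of 0.179. Its libraries were at 46.0 and 50.8% in WT and 57.3 and 56.4% under Rlim, beside chromosome medians of 50.4, 49.7, 52.5 and 52.5%. For Pcdhgb5 under Rlim the log2 odds difference was 1.35 ± 0.76 (SE) with an edgeR adjusted p of 0.407.

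No gene on a list of factors linked to protocadherin promoter choice passed the edgeR threshold. Of these 30 regulators, among them CTCF, cohesin subunits and DNA methylation enzymes, edgeR called 0 in any comparison. Of all genes tested it called 0.577% for Stc1, 2.35% for Pygo1 and 1.4% for Rlim, so 0 of 30 is near these shares. At an unadjusted p under 0.05 there were 5 for Stc1, 6 for Pygo1 and 4 for Rlim. The DESeq2 calls numbered 1, 1 and 2, with no share over all genes given here or for the lists below. Smchd1, a chromatin protein known to repress the clusters, was at 58.4 and 51.4 CPM in WT, 58.1 and 84.9 under Stc1, 65.7 and 49.6 under Pygo1, and 68.9 and 64.2 under Rlim. Its knockout-labelled values overlap WT except under Rlim, where the log2 difference was 0.28 ± 0.21 (SE) with an edgeR adjusted p of 0.552. Ctcf was at 48.0 and 45.7 CPM in WT, 46.2 and 45.4 under Stc1, 37.1 and 37.2 under Pygo1, and 44.9 and 46.6 under Rlim. The Pygo1-labelled pair was lowest, with a log2 difference of -0.33 ± 0.10 (SE) and an edgeR adjusted p of 0.132.

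Among 16 processing and signalling partners of the proteins, such as Adam10 and Ptk2, edgeR and DESeq2 called 0 in each comparison, with 1, 3 and 2 at an unadjusted p under 0.05. Of 22 tested neighbours of the clusters edgeR called 0, with 3, 3 and 4 at an unadjusted p under 0.05. By DESeq2 the calls numbered 0, 1 and 1. For both lists the 0 edgeR calls are near the shares of all genes given above. The median log2 differences of the neighbours were 0.08, 0.10 and 0.01, whereas those of the 27 tested members in the same fit were 0.99, 0.69 and 1.33. Over the 44 members with a count, fitted without the filter, they were 1.01, 0.77 and 1.15. With the members at 0 in a group set to no difference as above, these became 0.86, 0.47 and 0.86. Of 9 tested non-clustered protocadherins, which lie elsewhere in the genome, edgeR called Pcdh17, which rose under 2 labels, and none under Pygo1. The shares of all genes called were 0.577% for Stc1, 2.35% for Pygo1 and 1.4% for Rlim. At an unadjusted p under 0.05 there were 4, 3 and 3 of the 9, and the DESeq2 calls numbered 1, 2 and 2. Pcdh17 was at 0.0260 and 0.0627 CPM in WT, 3.24 and 1.05 under Stc1, 0.0126 and 0.0138 under Pygo1, and 1.48 and 1.21 under Rlim. Its log2 fold changes were 5.54 ± 0.71 (SE) for Stc1 and 4.86 ± 0.70 (SE) for Rlim, with edgeR adjusted p-values of 0.0323 and 0.0351.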

How the data were processed

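RNA was extracted with Trizol and made into libraries with a TruSeq kit, per the labels' protocols. The submitters' processing notes name HISAT2 2.0.5, Cufflinks, featureCounts and the build mm10. The authors deposited unnormalized counts for each Ensembl gene, split into all reads, genome 1 and genome 2. Annotation version, strand setting and allele-splitting tool are not given in the sources used here. Of 49670 genes, 49411 matched GENCODE M21 on GRCm38, which gave symbols, exons and coordinates.

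Group means over all 8 libraries were estimated with edgeR 4.0.16 under R 4.3.3, after TMM scaling, for 17839 genes kept by the default filter. A gene was called where its p, adjusted by Benjamini-Hochberg over all genes tested, was under 0.05. Genome shares were fitted in edgeR with a term per library and a genome term per group, for 12476 genes that had 20 or more genome-assigned reads in each library. In 329 genes, Pcdhb19 included, the genomes summed to more than all counts, and these were left out of that fit. Such genes were also left out of the other chromosome 18 genes used for comparison of shares. Intervals are Wilson 95% intervals. Both fits were also run on simulated data, with the outcome not given here, so that run lends no support to the results. Alternatives were DESeq2 1.42.0, other scalings, filters and read minimums, the compared groups alone, a replicate block and each library left out.

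The members, the lists and the tests were chosen with earlier results of these data known. Named genes were members called in a comparison, the 5 highest per kilobase of each cluster, members with enough reads for the share test, members at 0 in all libraries, called genes of the lists, and Smchd1, Ctcf, Taf7 and Hdac3. Pcdhga9, Pcdhga12, Pcdhga1, Pcdhga4, Pcdhga11, Pcdhb16, Pcdhgc4, Pcdhgc5 and the single markers were chosen after their values were seen, as were the read minimum per group and the scalings of the counts of libraries above WT. No sequence is printed. Figures were drawn with matplotlib 3.10.9.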

Additional observations from a re-analysis of the deposited data

How the results depend on the processing

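The 2 libraries per group and the low counts of most members limit every result. Of the members, edgeR called 0, 0 and 2 for Stc1, Pygo1 and Rlim, DESeq2 called 2, 4 and 6, and no expression filter gave 1, 1 and 3. The compared groups alone gave 0, 2 and 20, and library sizes from chromosome 18 gave 0, 0 and 1. Leaving out a replicate in turn gave 0 to 4 for Stc1, 0 to 4 for Pygo1 and 0 to 10 for Rlim. The replicate block gave 0, 0 and 0. Shares of all genes called are given here only for the main edgeR fits, so the counts of the alternative runs have no such background. The labels do not say that replicate numbers pair libraries, and the deviations of same-numbered libraries from their group means correlated with those of WT at 0.00, 0.23 and 0.44 over 9412 genes. The cause of these changes was not tested. For the genome share, edgeR called 0 members under each alternative run. The beta ratio for Rlim was 2.39 and 3.04 without WT replicate 1 and 2. With chromosome 18 library sizes the gamma ratios were 1.15, 1.27 and 1.39, and with total counts that for Rlim was 1.48. The beta genome 1 share without Pcdhb17 was 20.1% in WT and 15.4% under Rlim, and Pcdhb19 alone, the 1 gene with 20 reads in every library, gave 20.8% in WT and 40.6% under Pygo1. Directions that reversed, none of them called, were those of Pcdhb15, Pcdhb17 and Pcdhga12 for Stc1 without Stc1 replicate 1 (log2 -1.86, -0.10 and -0.97; without replicate 2, 1.59, 1.39 and 1.85), Pcdhgb1 for Pygo1 (-1.06 without Pygo1 replicate 2 and 1.87 without replicate 1), and Pcdhgb7 for Pygo1 (0.47 without Pygo1 replicate 1 and -1.08 without replicate 2). Pcdhb19 for Pygo1, near 0 at -0.01, was 0.0012 with RLE factors, 0.040 with upper-quartile scaling, 0.024 with a minimum of 1 CPM, 0.0058 in the compared groups alone and with the replicate block, 0.36 and -0.30 without WT replicate 1 and 2, and 0.090 without Pygo1 replicate 2. The counts of members above both WT libraries moved to 15, 17 and 25 with chromosome 18 library sizes. The gamma A genome 1 share without Pcdhga3 and Pcdhga12, an alternative chosen after seeing the data, was 37.3, 55.2, 58.0 and 50.6% in WT, Stc1, Pygo1 and Rlim.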
